A study of Arabidopsis thaliana with 22 samples.

Results

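The onset of the response to Fe deficiency was described as the change in transcript abundance between 1 h and 6 h after roots lost their Fe supply. It rests on 6 of the 22 arrays of the series, 3 of Fe-deficient roots harvested at 1 h and 3 of Fe-deficient roots harvested at 6 h, which were chosen by their labels and joined by replicate number. Another 6 arrays, of Fe-sufficient roots harvested at the same hours, served as the reference for time of day and time since transfer. All plants were Arabidopsis thaliana of the accession Landsberg erecta, grown in hydroponic culture with Fe. Both groups were rinsed in EDTA, a chelator of metal ions, and placed either in nutrient solution without Fe or in solution that contained it. The move was made 1 h after the lights came on, in a light period of 10 h, so that the 1 h harvest fell 2 h and the 6 h harvest 7 h into the light. Each harvest pooled whole roots of many plants. Fe-deficient plant groups were used only where their Fe3+-chelate reductase activity had risen clearly by 24 h, so the Fe-deficient arrays stand for responding plants. RNA was hybridised to the Affymetrix ATH1 array, on which a probe set reports the transcripts of, as a rule, a single gene.

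Arabidopsis takes up Fe by acidifying the soil, reducing ferric Fe at the root surface and importing ferrous Fe through the transporter IRT1. The transcription factor FIT, together with partners of a small bHLH family that includes BHLH39, switches these genes on, and the E3 ligases BTS and BTSL1 hold the response back. Surplus Fe is stored in the plastid protein ferritin and in the vacuole, and OPT3, FRO3 and NRAMP4 move Fe to the phloem, within mitochondria and out of the vacuole.

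Arrays were alike in overall signal. The median intensity of the 12 arrays lay between 180.95 and 202.55, and 20.1% to 25.3% of the probe sets had an intensity under 32, where single values are unreliable. A probe set is called bright below when its mean log2 level over the 12 arrays exceeded the median of all probe sets, 7.58, an intensity of 190. Of 22746 probe sets, 13553 could be given 1 gene, and the remainder were fitted and counted but not named. The root check was thin. The root hair expansins EXPA7 and EXPA18 were above the median level, 7 of 22 genes of green tissue could be measured and 0 of them were bright, and no marker of endodermis, xylem or phloem could be named. In whole roots, fewer cells of a type and less RNA per cell cannot be told apart.

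In Fe-deficient roots 8 of 21 probe sets of Fe regulators and 4 of 5 of Fe distribution rose, and the ferritin genes FER1 and FER3 fell. All of these are genes that the study called raised or lowered on these same samples. The counts are thus no independent evidence of direction. Ranked by p, the bright risers began with ORG1 and DGAT3, which belong to neither the regulator nor the distribution list, and most of the first 10 were outside both. The steepest falls, by contrast, were shared with Fe-sufficient roots. The study took a gene as changed when its fold change exceeded 1.5 and its p, without adjustment, stayed under 0.05. The same criterion decides below whether a probe set rose or fell, in a limma fit of log2 intensities over the 12 arrays with the replicate number as a block. By that rule 642 probe sets rose (2.82% of those tested) and 608 fell (2.67%) in Fe-deficient roots, 5.5% together. In Fe-sufficient roots 937 rose (4.12%) and 630 fell (2.77%), 6.89% together. The difference between these steps met the criterion for 737 probe sets (3.24%), higher in Fe-deficient roots for 298 (1.31%) and lower for 439 (1.93%). After quantile normalisation, which sets the arrays to 1 distribution, the splits were 497 rises and 714 falls in Fe-deficient roots, 562 and 837 in Fe-sufficient roots, and 425 against 342 for the difference, so that the balance of rises and falls over all probe sets depends on the scaling. Among bright probe sets it hardly moved, as 135 rose (1.19%) and 317 fell (2.79%) in Fe-deficient roots, 3.97% together, against 129 and 320 after quantile normalisation. Bright probe sets of Fe-sufficient roots showed 202 rises (1.78%) and 375 falls (3.3%), 5.07% together.

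No probe set passed a Benjamini-Hochberg adjusted p of 0.05 in limma in any of these comparisons. The 55 named probe sets that met the criterion in Fe-deficient roots had adjusted p from 0.2152 to 0.5562, and the 39 named for the difference had 0.9996. The smallest adjusted p of all was 0.215 in Fe-deficient roots, 0.171 in Fe-sufficient roots and 0.102 for the difference. At an unadjusted p under 0.05 there were 2005 probe sets (8.81%) in Fe-deficient roots, 2491 (11%) in Fe-sufficient roots and 861 (3.79%) for the difference, where 1137 would be met by chance in each. For the difference the count is under that number, and the genes named for it below are descriptions of their arrays. With the test restricted to bright probe sets by a filter, 47 passed the adjusted p in Fe-deficient roots, and with the variance allowed to follow intensity 70 did. Both ways called 45, of which 12 rose and 33 fell. Among the risers were BHLH39, ORG1, AT5G05250, FRO3, DGAT3, BTS, AT5G24165, AT1G21680 and AT3G09735. Neither way gave a call for the difference. Leaving out replicate 3 raised the criterion count in Fe-deficient roots to 2097, and other single omissions left it at 965 or more.

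**Figure D1:**
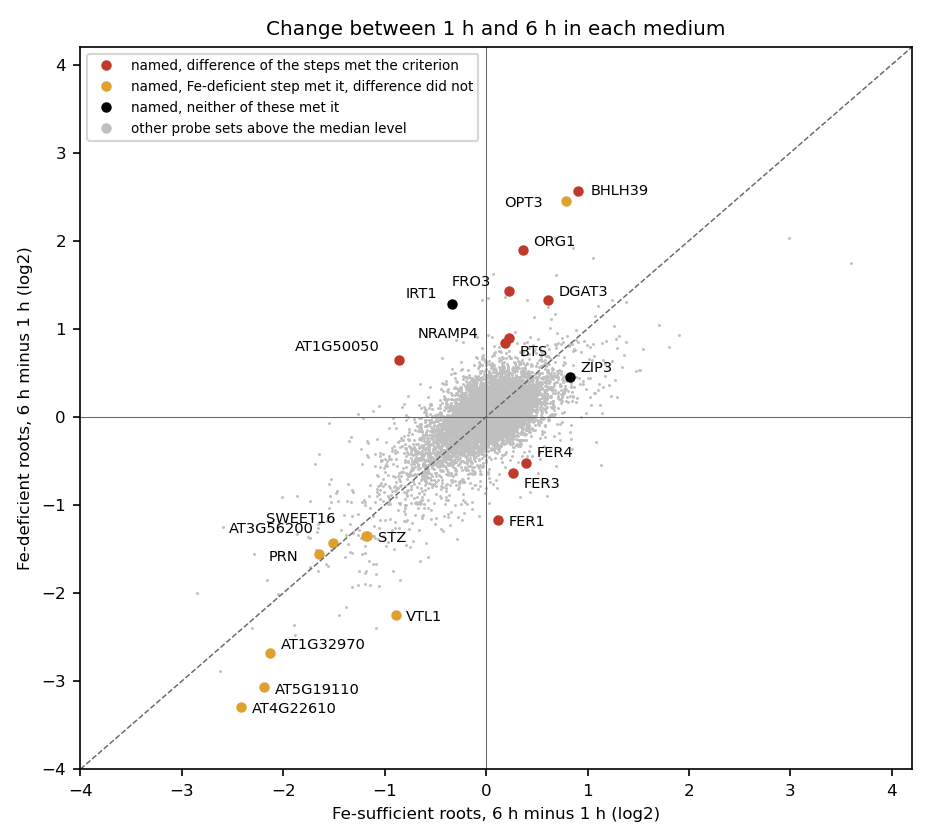
Change from 1 h to 6 h in Fe-sufficient roots (x axis, log2) against the same change in Fe-deficient roots (y axis, log2) for 11373 bright probe sets, each a grey point, with selected genes coloured by the criterion they met. Points near the dashed line moved alike in both media, as PRN and AT3G56200 did, while ORG1, FRO3, BTS and NRAMP4 lie above it and FER1, FER3 and FER4 below it.

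By p, the first-ranked riser among named bright genes was ORG1 (AT5G53450), named as a gene that responds to the transcription factor OBP3. Its intensities in Fe-deficient roots were 312.6, 359.4 and 404.9 at 1 h and 1509.3, 1348 and 1162.1 at 6 h. In Fe-sufficient roots they were 385.9, 252 and 269.8 at 1 h and 505, 321.9 and 345.5 at 6 h. Thus the Fe-deficient 6 h arrays stood apart from the other 9. The log2 change was 1.90 ± 0.20 (SE) in Fe-deficient roots and 0.36 ± 0.20 in Fe-sufficient roots, and the difference of 1.53 ± 0.29 met the criterion.

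BHLH39 (AT3G56980), a bHLH factor that works with FIT, had the largest rise among named bright genes. Fe-deficient roots gave 229.2, 517.5 and 633 at 1 h and 2211, 2573.5 and 2780.5 at 6 h, against 139, 532.6 and 253.2 and then 500.8, 652 and 380.3 in Fe-sufficient roots. Replicate 1 started low in both media. The change was 2.57 ± 0.40 (SE) on the log2 scale, or 5.94-fold, and exceeded that of Fe-sufficient roots by 1.66 ± 0.56. This difference no longer met the criterion when either Fe-deficient array of replicate 1 was left out. Its relative BHLH101 was dim, with 31.6, 24.9 and 55 at 1 h and 136.5, 98.1 and 77.3 at 6 h in Fe-deficient roots. These groups did not overlap, but the change of 1.5 ± 0.78 missed the criterion.

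BTS and BTSL1, which restrain the response, rose as well. BTS (AT3G18290), an E3 ligase with Fe-binding hemerythrin domains, went from 598.4, 853.5 and 966.9 to 1201.4, 1923.8 and 1391.9 in Fe-deficient roots, and from 563, 823.7 and 944 to 663.1, 1153.1 and 924.8 in Fe-sufficient roots. Each of the 3 Fe-deficient pairs went up, and the groups of 1 h and 6 h did not overlap. The change was 0.90 ± 0.16 and its excess over Fe-sufficient roots 0.67 ± 0.22, a difference whose call was lost without any one of 3 arrays. BTSL1 (AT1G74770), a related ligase, was read by a bright and a dim probe set, which rose by 1.36 ± 0.31 and 1.95 ± 0.43 and exceeded Fe-sufficient roots by 1.18 ± 0.44 and 2.12 ± 0.61. On the bright probe set the call of the difference was lost when any one of 6 arrays was left out. On the bright one the Fe-deficient arrays read 581.8, 1494.3 and 1118.9 at 1 h and 2187.4, 2773.8 and 2741.5 at 6 h, whereas in Fe-sufficient roots replicate 1 went up from 625.2 to 1140 and replicate 2 down from 1279.6 to 889. BTSL2, the next member of that family, changed by 0.29 ± 0.19 and missed the criterion.

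FIT itself (AT2G28160) rose modestly. It read 465.9, 515.1 and 617.8 at 1 h and 752.3, 819 and 1042 at 6 h in Fe-deficient roots, a change of 0.70 ± 0.28, and 460.4, 500.7 and 396.2 against 725.6, 354.8 and 415.8 in Fe-sufficient roots. With Fe, replicate 1 went up, replicate 2 went down and replicate 3 barely moved, and the difference of 0.63 ± 0.39 missed the criterion. PYE (AT3G47640), a bHLH factor of the stele, rose by 0.67 ± 0.20 and the 14-3-3 protein gene GRF11 by 1.33 ± 0.53. MYB10, a transcription factor of the MYB family, rose by 1.14 ± 0.48. For none of these 3 did the difference between media meet the criterion. The calls of FIT, MYB10 and GRF11 were lost when any one of 5, 7 or 8 arrays was left out, and that of PYE without either of 2. IMA1, which encodes a short peptide that promotes Fe uptake, read 127.9, 390.6 and 535.8 at 1 h and 784, 1168.1 and 1268.8 at 6 h in Fe-deficient roots. Its groups did not overlap, yet 43.6 and 537.1 in Fe-sufficient roots of 1 h show how widely it varied, and the change of 1.81 ± 0.81 missed the criterion.

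Other regulators moved little or went the other way. BHLH34, BHLH104, BHLH115 and ILR3, the bHLH factors that act above BHLH39 and PYE, and their partner URI lay between -0.05 and 0.27 in Fe-deficient roots, and none met the criterion. BHLH19, one of 4 related factors known to promote breakdown of FIT protein, fell from 104.1, 368.8 and 75 to 19.9, 41.7 and 16.2. All 3 pairs went down and the groups did not overlap. Its change was -2.53 ± 0.40, beside -0.75 ± 0.40 in Fe-sufficient roots, a difference of -1.78 ± 0.56, although none of its 6 h arrays read above 44.5. Its relatives BHLH18 and BHLH20 did not meet the criterion, and BHLH25, at 0.9 to 27.3 in the arrays, met it for the difference (3.79 ± 1.17) at intensities where single values are unreliable. Of 21 probe sets for Fe regulators, for 20 of 24 listed genes, 8 rose and 1 fell in Fe-deficient roots, with a median change of 0.70 beside 0.0535 over all probe sets. All 8 risers are of genes that the study called raised on these same samples, so this count is no independent evidence of direction. In Fe-sufficient roots 1 rose and 1 fell, the dim probe sets of MYB72 and BHLH25, and the median was 0.0727. For the 13 bright probe sets of this list, refitted alone with the other bright ones, the median was 0.293 in Fe-deficient roots.

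**Figure D2:**
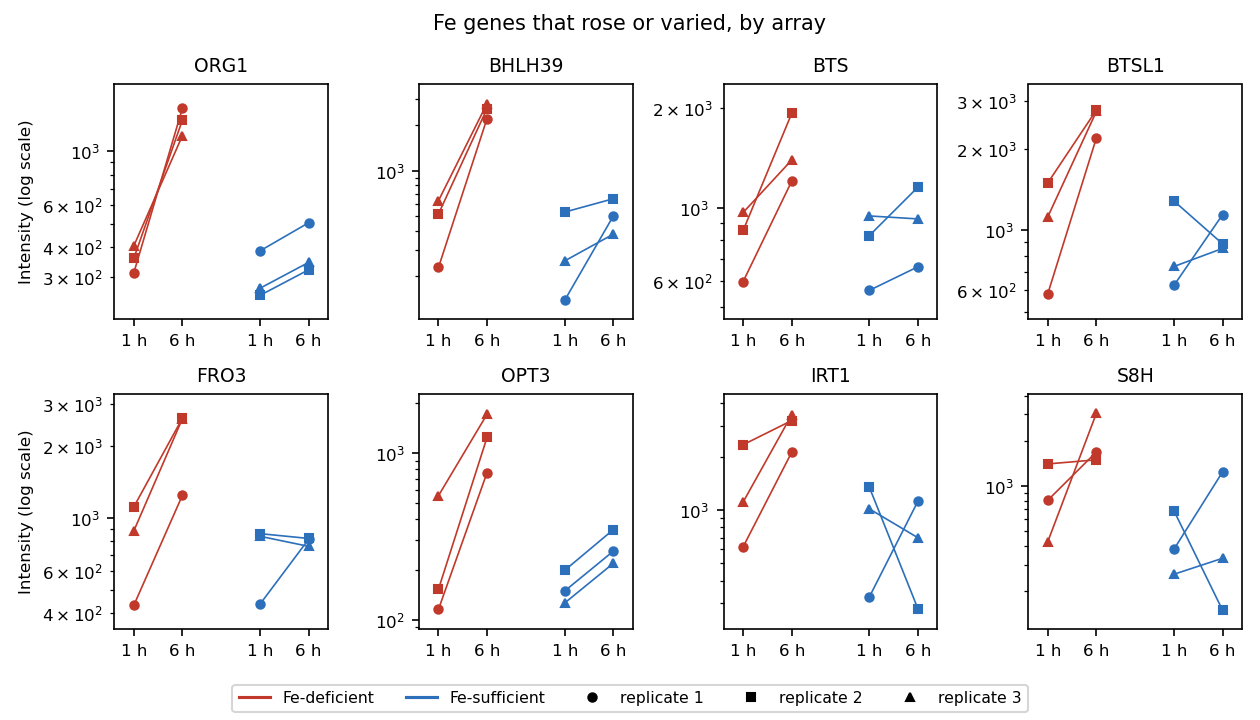
Intensity of 8 genes of Fe regulation and transport (y axis, log scale) in each array at 1 h and 6 h, with lines joining arrays of the same replicate number, Fe-deficient roots in red and Fe-sufficient roots in blue. In ORG1, BHLH39, BTS, BTSL1, FRO3 and OPT3 every red 6 h point lies above every red 1 h point, whereas in IRT1 they overlap.

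Genes that distribute Fe inside the plant mostly rose. Of 5 measured probe sets of the 16 listed genes, 4 rose and 0 fell in Fe-deficient roots, with a median of 0.844, against 0 and 0 and a median of 0.185 in Fe-sufficient roots. All 5 are of genes that the study called raised on these same samples. Their count and median are thus no independent evidence of direction. FRO3 (AT1G23020), a ferric reductase of mitochondria, went from 431.1, 1110.3 and 881.5 to 1239.8, 2602.5 and 2589.3 in Fe-deficient roots, and from 436.1, 858.6 and 837.2 to 813.2, 819.9 and 760 in Fe-sufficient roots. Replicate 1 was about as low at 1 h in both media and went up in both, and replicates 2 and 3 went up only without Fe. The change was 1.43 ± 0.26, and 1.20 ± 0.37 above that of Fe-sufficient roots. OPT3 (AT4G16370), which loads Fe into the phloem, read 115.4, 152.4 and 554.1 at 1 h and 761.8, 1238.3 and 1705.5 at 6 h without Fe. With Fe it read 148.7, 197.7 and 126 and then 257.4, 346.6 and 217.6. Both media went up in all 3 pairs, by 2.45 ± 0.51 and 0.79 ± 0.51, and the difference of 1.66 ± 0.73 missed the criterion.

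NRAMP4 (AT5G67330) releases Fe from the vacuole. Its Fe-deficient arrays read 1059.5, 1017.5 and 735.3 at 1 h and 1376.7, 1922.1 and 1733.5 at 6 h, without overlap, and those with Fe lay between 811.5 and 1123.6 throughout. It rose by 0.84 ± 0.19, and the difference of 0.66 ± 0.27 met the criterion but was lost when any one of 9 arrays was left out. IREG2, a ferroportin of the vacuolar membrane, rose by 0.59 ± 0.18, just past the fold limit, with overlapping groups. Its call was lost without either of 2 arrays, and the difference of 0.50 ± 0.26 missed the criterion. IREG3, its plastid relative, changed by 0.36 ± 0.25 and missed the criterion.

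Of 5 listed uptake genes 2 were measured, IRT1 and IRT2, and neither met the criterion. The ferric reductase gene FRO2 could not be matched to a probe set here. IRT1 (AT4G19690) read 620.8, 2337.4 and 1110.9 at 1 h and 2118.3, 3197.7 and 3445 at 6 h in Fe-deficient roots. In Fe-sufficient roots it read 323.8, 1344.8 and 1016 at 1 h and 1122.3, 277.7 and 698.4 at 6 h, so that replicate 1 rose while replicates 2 and 3 went down. The change of 1.28 ± 0.70 without Fe and the difference of 1.62 ± 0.99 both missed the criterion, although all 3 Fe-deficient pairs went up. IRT2, a close relative of IRT1, was dim and changed by 0.93 ± 0.65. S8H, which makes the Fe-mobilising coumarin fraxetin, went from 805.5, 1405.7 and 427.2 to 1689.6, 1497.8 and 3052.7 without Fe, a change of 1.33 ± 0.79 that missed the criterion. Replicate 2 barely moved and replicate 3 gained most. F6'H1, an early enzyme of coumarin synthesis, read 11963.4 to 17083.2 at 1 h and 14580.7 to 20440.9 at 6 h, with a change of 0.20 ± 0.16. None of the 4 measured coumarin genes met the criterion in either medium.

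Replicate 1 stood apart in these genes. Over the 24 probe sets that the study placed in its group of strongly raised genes, a group chosen on these same samples and so no independent evidence of direction, the change in Fe-deficient roots was positive for 24, 21 and 24 in replicates 1, 2 and 3. In Fe-sufficient roots it was positive for 23 in replicate 1, but for 7 and 11 in replicates 2 and 3. The median change of these probe sets was 1.9, 0.632 and 1.62 without Fe and 1.3, -0.365 and -0.0968 with Fe. Within replicate 1 the Fe-deficient change exceeded the Fe-sufficient one for 14 of 24, and within replicates 2 and 3 for 22 of 24 each. Over all bright probe sets the shares were 54.8%, 46% and 46.1%. What set the Fe-sufficient roots of replicate 1 apart was not tested.

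By the criterion, 13 of these 24 rose and 0 fell in Fe-deficient roots, and 1 rose in Fe-sufficient roots. Of the 27 weakly raised probe sets of the study, 13 rose and 0 fell without Fe, and the change was greater without Fe for 19, 26 and 27 of them in replicates 1, 2 and 3. Among the 16 that the study listed as lowered, 0 rose and 3 fell, with a median of -0.23. These 27 and 16 were likewise chosen on these same samples, and their counts are no independent evidence of direction. In the strongly raised group AT5G05250 stood out, a gene with no assigned function in the annotation used. It read 83, 174.3 and 171.6 at 1 h and 630.5, 643.2 and 428.8 at 6 h without Fe, and 173.8, 189.1 and 88.2 and then 243.9, 258.4 and 188.8 with Fe. Its Fe-deficient 6 h arrays lay above all the others. The change was 2.03 ± 0.34 and the difference 1.36 ± 0.48. That difference was only 0.227 in replicate 3, and its call was lost without any one of 4 arrays. DGAT3 (AT1G48300), a soluble diacylglycerol acyltransferase that carries an Fe-sulfur cluster, went from 1337.1, 1496.2 and 1733.9 to 4223.6, 3381.3 and 3866.5 without Fe, and from 1620, 1281.4 and 1433 to 2744.9, 1946.5 and 1972.3 with Fe. It rose in both media, by 1.33 ± 0.16 and 0.61 ± 0.16, and more so without Fe (difference 0.72 ± 0.23). PGR5-LIKE A (AT4G22890), of cyclic electron transport in photosynthesis, read 239, 231.4 and 234.4 at 1 h and 373.1, 391.1 and 475.1 at 6 h without Fe, and stayed between 228.3 and 335.7 with Fe. It rose by 0.80 ± 0.18 without Fe, and the difference of 0.73 ± 0.25 met the criterion, a call lost without any one of 3 arrays.

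**Figure D3:**
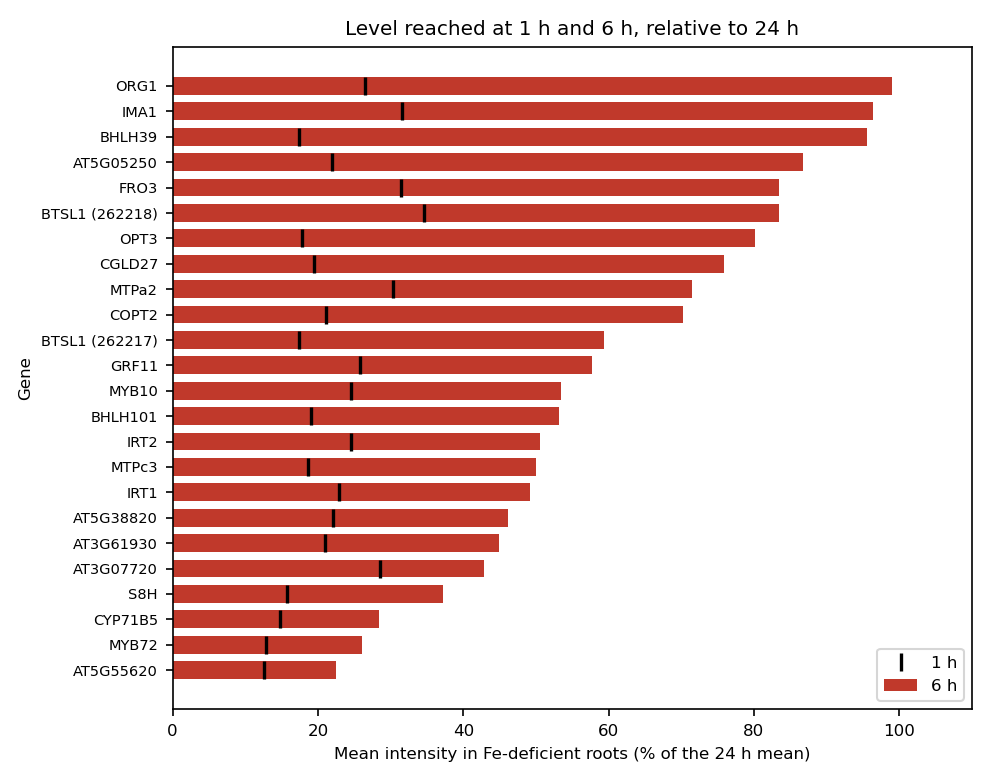
Mean intensity of the 24 strongly raised probe sets in Fe-deficient roots at 6 h (bars) and at 1 h (black ticks), as a percentage of the mean of the 2 Fe-deficient arrays of 24 h. At 6 h ORG1 stood at 99% and BHLH39 at 95.5% of their 24 h mean, IRT1 at 49.2% and MYB72 at 26%. The 1 h level is not subtracted.

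The level at 6 h relative to 24 h differed between genes. Set against the mean of the 2 Fe-deficient arrays of 24 h, the 6 h mean was 99% for ORG1, 96.4% for IMA1, 95.5% for BHLH39, 86.8% for AT5G05250, 83.5% for FRO3 and 80.1% for OPT3. It was 49.2% for IRT1, 37.2% for S8H and 26% for MYB72, a factor upstream of coumarin release, whose mean went from 82.63 at 1 h to 166.7 at 6 h and 641.8 at 24 h. Across the 24 probe sets the share ran from 22.5% to 99% with a median of 55.6%, and 7 were at 80% or more and 8 under 50%. The shares are of levels, not of rises, as the 1 h level was not subtracted. Means at 1 h, 6 h and 24 h were 359, 1340 and 1354 for ORG1 and 1356, 2920 and 5938 for IRT1, which was thus well above 0 before the step. Fe-sufficient means at 6 h and 24 h were 699.5 and 2051 for IRT1, 574.7 and 1149 for S8H, and 51.8 and 71.85 for MYB72. For ORG1 they were 390.8 and 416.6, and for BHLH39 511 and 491. A lower mean at 6 h than at 24 h was thus not particular to roots without Fe for IRT1 and S8H. These shares are descriptions from means, the 24 h arrays were harvested at another hour of the day, and the order of neighbouring genes was not tested.

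Metal genes outside Fe transport also moved. MTPa2, which carries zinc into the vacuole, rose by 1.35 ± 0.41, from 345.3, 1346.7 and 964.4 to 1207, 2073 and 2984.9. Replicate 1 was lowest at both hours and the groups overlapped. That call was lost without the Fe-deficient 1 h array of replicate 1. With Fe, MTPa2 changed by 0.02 ± 0.41, and the difference of 1.33 ± 0.59 missed the criterion. MTPc3, a vacuolar manganese transporter, rose by 1.90 ± 0.77, a value that rests on 21.3 in replicate 1 at 1 h beside 234.4 and 198.9. The MTPc3 call was lost without any one of 7 arrays, and its difference of 1.90 ± 1.09 missed the criterion. COPT2, a copper importer, rose by 1.62 ± 0.51, from 271.6, 257.2 and 184 to 861.8, 392.3 and 1118.1. Its groups did not overlap, replicate 2 gained least, and the difference of 1.55 ± 0.72 missed the criterion. The COPT2 rise was lost without either of 2 arrays. The zinc importers ZIP9 and ZIP3 behaved otherwise, as they rose in Fe-sufficient roots by 1.06 ± 0.23 and 0.82 ± 0.31 and changed by 0.26 ± 0.23 and 0.46 ± 0.31 without Fe, where they missed the criterion. For ZIP9 the difference of -0.79 ± 0.32 met it and was lost without any one of 10 arrays. For ZIP3 the difference of -0.37 ± 0.43 missed the criterion, and the rise with Fe was lost without any one of 3 arrays. Of 7 zinc probe sets, from 21 listed genes, 2 rose in each medium.

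Ferritin genes FER1 and FER3 fell without Fe, and neither met the criterion with Fe. FER1 (AT5G01600), a plastid ferritin, fell from 3161, 2983 and 1980.4 to 1659.1, 1191.7 and 823.7 in Fe-deficient roots, while Fe-sufficient roots held 2671.8, 2581.3 and 5328.7 at 1 h and 3322.6, 3615.7 and 3903.5 at 6 h. Lowest of the 12 were the Fe-deficient 6 h arrays. The change was -1.17 ± 0.37, a call lost without any one of 3 arrays, and the difference was -1.29 ± 0.52, lost without any one of 8. FER3 (AT3G56090) fell from 1229.7, 1352.9 and 1255.7 to 788.1, 1118 and 622, and with Fe it went from 1056.1, 932.5 and 1248.2 to 1301.8, 1227.6 and 1331.2. Every pair went down without Fe and up with it. The change without Fe was -0.64 ± 0.22, a call lost when any one of 4 arrays was left out. The difference was -0.91 ± 0.31, lost without the Fe-sufficient 1 h array of replicate 2.

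FER4 (AT2G40300), a ferritin found in plastids and mitochondria, showed the same crossing. It read 265.5, 289.4 and 355.1 at 1 h and 239.3, 200.4 and 191 at 6 h without Fe, and 285, 265.5 and 231.7 and then 346.2, 316.5 and 365.3 with Fe. The groups of 1 h and 6 h did not overlap in either medium. Its step of -0.52 ± 0.16 stayed under the fold limit, and the difference of -0.92 ± 0.23 met the criterion, also without any single array. VTL1, a vacuolar Fe importer, fell from 1451, 437.6 and 392.8 to 220.8, 145.9 and 70.3. This change of -2.25 ± 0.73 lost its call without either of 2 arrays. In Fe-sufficient roots VTL1 went up in replicate 1 and down in replicates 2 and 3, and the difference of -1.36 ± 1.02 missed the criterion. Over the 7 Fe storage probe sets measured, of 10 listed genes, 3 fell and 0 rose without Fe, none moved past the criterion with Fe, and the medians were -0.643 and 0.108. Those 3 are genes that the study called lowered on these same samples, and so no independent evidence of direction.

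**Figure D4:**
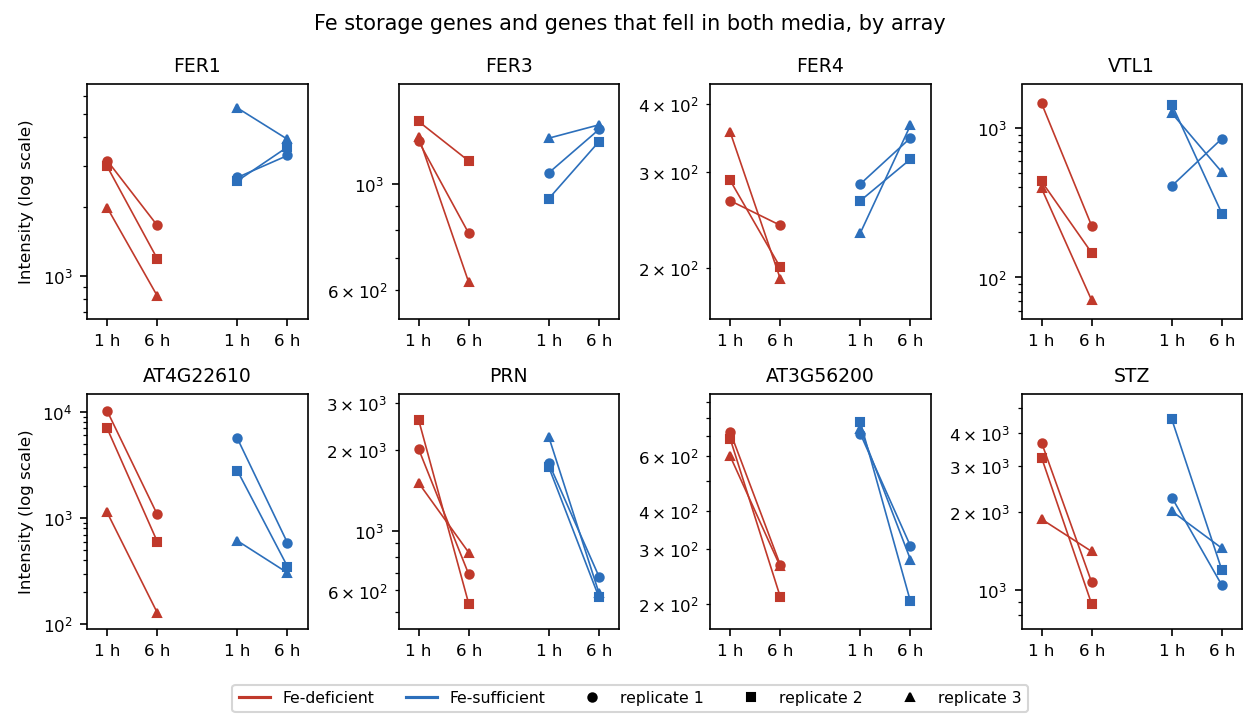
Intensity (y axis, log scale) of 4 Fe storage genes, upper row, and of 4 genes that fell in both media, lower row, at 1 h and 6 h in each array, with lines joining arrays of the same replicate number. FER3 and FER4 go down in every Fe-deficient pair (red) and up in every Fe-sufficient pair (blue), and the lower genes go down in all 6 pairs.

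Most large falls were not particular to Fe-deficient roots. Of the 317 bright probe sets that fell without Fe, 173 also fell with Fe, 54.6% of the former and 46.1% of the 375 that fell with Fe, and 310 had the same sign. Of the 135 that rose, 41 also rose with Fe, 30.4% of these and 20.3% of the 202 risers of Fe-sufficient roots, and 121 had the same sign. Fe-deficient and Fe-sufficient steps share no array. Across the 11373 bright probe sets the steps of both media correlated with r = 0.68 and rho = 0.541, a description over probe sets that share arrays, and r was 0.16 below the median level. The difference of the steps met the criterion for 8 of the 317 and for 26 of the 135, beside 0.325% and 0.501% of bright probe sets called lower and higher. That contrast contains the Fe-deficient step, so these counts are descriptive.

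The steepest fall among bright probe sets was in AT4G22610, a gene of unassigned role here, which read 10170.5, 6983.7 and 1130.5 at 1 h and 1082, 601.4 and 129 at 6 h without Fe. With Fe it read 5604.5, 2789.2 and 611.6 and then 584, 350.1 and 305.7. Replicate 3 was low in both media at 1 h. The falls were -3.30 ± 0.47 and -2.42 ± 0.47, and their difference of -0.88 ± 0.67 missed the criterion. AT5G19110 fell in both media, with changes of -3.07 ± 0.36 and -2.19 ± 0.36. AT1G32970 did too, with -2.68 ± 0.33 and -2.13 ± 0.33. PRN (AT3G59220), a pirin that binds a G protein subunit, fell from 2021.8, 2597.4 and 1511.1 to 689.5, 535.3 and 831.1 without Fe and from 1787.8, 1728.5 and 2238 to 676, 565.6 and 586.8 with Fe. The 6 arrays of 6 h all lay below the 6 of 1 h. PRN changed by -1.56 ± 0.25 and -1.65 ± 0.25, a difference of 0.08 ± 0.35. SWEET16, a vacuolar sugar transporter, fell too (-1.35 ± 0.20 and -1.19 ± 0.20), as did AT3G56200 (-1.44 ± 0.16 and -1.51 ± 0.16). AT3G62010, AT3G52870 and AT5G22530 fell in both media too. GH9B8, of an endoglucanase family, fell without Fe (-0.99 ± 0.15), and its change of -0.41 ± 0.15 with Fe was under the fold limit.

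Touch and wound genes were among the shared falls. Of 5 measured, from 19 listed genes, 4 fell without Fe and 3 with Fe, and the medians were -1.42 and -1.09. STZ, a zinc finger factor induced by many stresses, read 3675.3, 3219.1 and 1869.8 at 1 h and 1070.4, 883.5 and 1406.6 at 6 h without Fe, and 2265, 4510.8 and 2006.4 and then 1042.7, 1190.6 and 1446.9 with Fe. Hours did not overlap in either medium. CML37 and CML39, calmodulin-like calcium sensors, fell in both media, and CML38 fell without Fe (-2.40 ± 0.82) while its change of -1.09 ± 0.82 with Fe missed the criterion. For none of the 5 did the difference between media meet it. The CML38 fall without Fe was lost without any one of 4 arrays, and with Fe that of CML37 was lost without any one of 4 and that of STZ without any one of 3. With Fe, all of these genes but CML38 had a higher mean at 0 h than at 1 h. The Fe-sufficient means at 0 h and 1 h were 3652 and 2927 for STZ, 308.1 and 269.1 for CML37, and 202.7 and 153.3 for CML39. WRKY53, a stress-responsive factor that missed the criterion, had 1871 and 1252. CML38 alone of the 5 had the higher mean at 1 h with Fe, 940.4 against 638 at 0 h. Without Fe, CML39 and CML38 were both lower at 0 h, with 202.6 and 686.7 against 342.7 and 765.7 at 1 h. STZ, CML37 and WRKY53 were higher at 0 h there, with 4424, 354.5 and 1759 against 2921, 275.6 and 1236.

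The Fe-sufficient arrays of 0 h, which entered no step, gave another picture for the bright fallers as a whole. Of the 317 bright fallers of Fe-deficient roots, 241 (76%) had a higher Fe-sufficient mean at 1 h than at 0 h and 6 h. The share was 26.8% over all bright probe sets. That comparison is unequal, because 310 of the 317 were already higher at 1 h than at 6 h with Fe. The median Fe-sufficient change of the fallers from 0 h to 1 h was 0.356, beside -0.0296 over all bright probe sets. From 0 h to 24 h it was -0.391. A higher level at 1 h than at 0 h was thus common among the fallers without any loss of Fe. Of the 135 risers, 82 (60.7%) were lower in Fe-sufficient roots at 1 h than at 0 h and 6 h, beside 41.4%. Here too the comparison is unequal, because 121 of the 135 were already lower at 1 h than at 6 h with Fe. The median Fe-sufficient change of the risers from 0 h to 1 h was -0.0868, beside -0.0296 over all bright probe sets. Handling at transfer and time of day cannot be told apart here.

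At 24 h, on arrays not used for the step, the risers were more often higher in Fe-deficient than in Fe-sufficient roots. This held for 87 of 135 (64.4%), and for 124 of the 317 fallers (39.1%), beside 51.5% of all bright probe sets. The medians of that 24 h difference were 0.0848, -0.055 and 0.00512 on the log2 scale, from 2 arrays per medium. At 0 h the media already differed for the fallers. There 72 of the 135 risers (53.3%) and 199 of the 317 fallers (62.8%) were higher in Fe-deficient roots, beside 48% of all bright probe sets. The medians at 0 h were 0.0186, 0.0718 and -0.00766. Of the 57 bright probe sets higher by the difference of the steps, 34 (59.6%) were higher without Fe at 24 h, and 34 at 0 h. Of the 37 lower by it, 17 (45.9%) were higher without Fe at 24 h and 8 (21.6%) at 0 h. Whether the step lasted to 24 h was not tested.

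**Figure D5:**
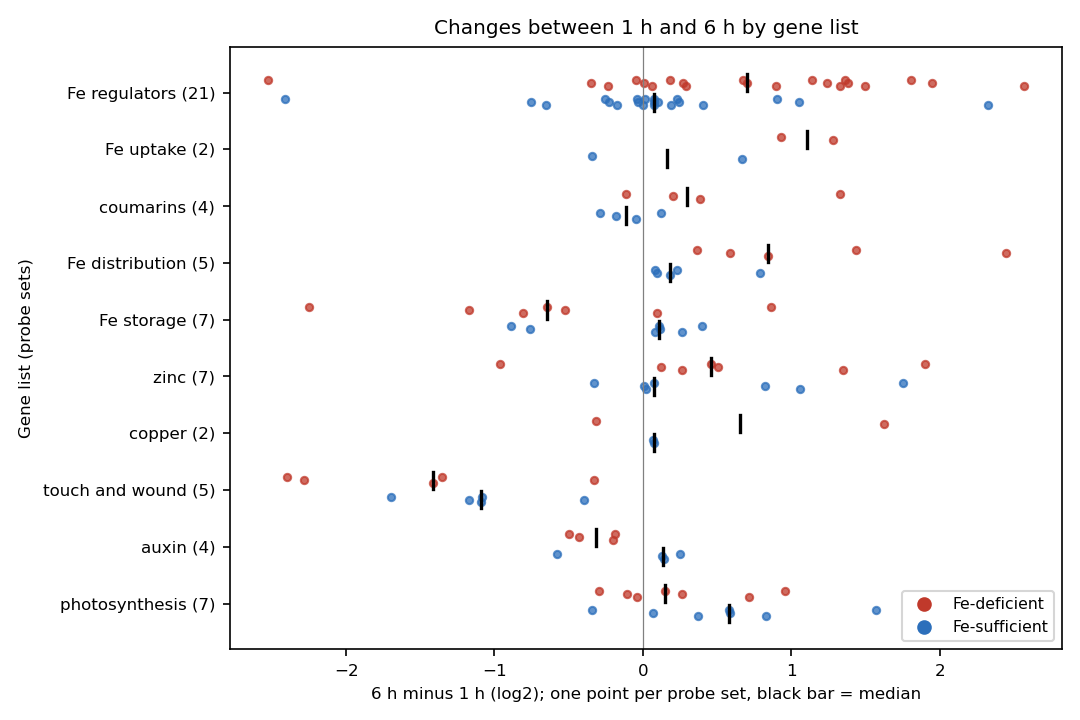
Change from 1 h to 6 h (x axis, log2) of every measured probe set of 10 gene lists (y axis, number of probe sets in brackets), Fe-deficient roots in red and Fe-sufficient roots in blue, with the median as a black bar. Medians differ between the media for Fe distribution (0.844 and 0.185) and Fe storage (-0.643 and 0.108), while the points of the media overlap. Both medians lie left of 0 for touch and wound (-1.42 and -1.09).

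Some genes outside the Fe lists moved apart between the media. AT1G50050, whose probe set met the criterion upward without Fe and downward with Fe, read 376.8, 703.2 and 309.8 at 1 h and 507.7, 929.7 and 673 at 6 h in Fe-deficient roots, and 570.3, 687.4 and 703.6 and then 369.9, 442.1 and 284 in Fe-sufficient roots. All pairs went up without Fe and down with it, and the difference was 1.5 ± 0.33. Its rise without Fe was lost without any one of 4 arrays. AT3G09735 read 1946.4, 2118.7 and 2916.7 at 1 h and 3325.8, 4085.2 and 4134.1 at 6 h without Fe, a rise of 0.74 ± 0.12, and with Fe it changed by 0.09 ± 0.12. Its means at 24 h were 2425 without Fe and 2414 with Fe, so that the gap of 6 h was no longer seen. AT3G14280 rose by 0.85 ± 0.21 without Fe and changed by -0.23 ± 0.21 with Fe. AT4G28020 and AT5G66490 rose by 0.67 and 0.68 without Fe. For AT4G28020 the media had differed at 1 h already, with 140.6 to 147.8 without Fe and 236.8 to 250.7 with Fe, and by 6 h they overlapped. AT1G50050 had differed at 0 h, with means of 493.7 without Fe and 833.1 with Fe. At 24 h the means without and with Fe were 803.2 and 781.4 for AT1G50050 and 1682 and 1800 for AT3G14280. For AT4G28020 they were 202.4 and 219.8, and for AT5G66490 1013 and 776.2.

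Among the genes lower in Fe-deficient roots by the difference, AT5G22270, annotated as salt-induced and dependent on the ethylene factors EIN3 and EIL1, rose only with Fe. It read 1329.8, 1661 and 914.3 at 1 h and 2100.1, 2337 and 2320.1 at 6 h with Fe, and 1697.5, 1281.5 and 1111.5 and then 1340.8, 1145.7 and 1101.8 without Fe. Its Fe-sufficient arrays of 6 h were the highest of the 12. The change was 0.83 ± 0.21 with Fe and -0.17 ± 0.21 without, a difference of -1 ± 0.29. AT1G53035 likewise rose by 0.88 ± 0.15 with Fe and changed by 0.17 ± 0.15 without Fe. AT5G49400 fell without Fe (-0.82 ± 0.15) and changed by -0.08 ± 0.15 with Fe. AT1G29660 fell as well (-0.91 ± 0.29), beside 0.33 ± 0.29 with Fe. At 24 h the means without and with Fe were 994.4 and 1772 for AT5G22270. They lay close together for AT1G53035 (414.9 and 407.4), AT5G49400 (419.4 and 415.6) and AT1G29660 (271.5 and 265.4).

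Other listed processes showed little. The root hair gene EXPA18 rose with Fe by 0.87 ± 0.23, and neither it nor EXPA7 met the criterion without Fe. None of the 7 photosynthesis genes, 4 auxin genes, 3 genes of Fe-containing proteins and 2 phenylpropanoid genes measured did so in either medium. Of 33 clock genes 3 could be measured, GI, RVE6 and CDF5, of which only CDF5, a dim probe set, fell with Fe (-1.65 ± 0.43). The central clock genes were therefore no guide to time of day in these arrays.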

How the data were processed

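The files as deposited hold 1 intensity on a linear scale for every probe set. On the 12 arrays its mean, after trimming 2% at each end, was 500.04 to 500.05, which shows scaling to a common value. The study's methods name another route, normalisation by a robust probe-level model in AffylmGUI, whose output is log2, so the deposited linear intensities differ from it in scale. Which program produced them is not given in the sources used here. No detection calls were used. Of 22810 probe sets 64 controls were left out. Gene names came from the array annotation (13513 probe sets) and the study's tables (40), while 501 with several genes and 8692 without one were not named.

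A linear model of log2(intensity + 1) was fitted with limma 3.58.1 under R 4.3.3 (lmFit, then eBayes) to 4 groups of 3 arrays plus the replicate number, which left 6 residual degrees of freedom and 1.6 from the prior. The contrasts tested were the 6 h minus 1 h step in each medium and their difference, with Benjamini-Hochberg adjustment over 22746 probe sets. Steps are in log2 units, errors are SE, and p-values reflect only how these samples spread, which the labels call biological replicates. The number of arrays limits the precision. The pairing by replicate number comes from the labels and was checked. Over 18 pairs of arrays of the same number from different groups, deviations from the group means correlated by 0.099 to 0.45, and over 36 of different numbers by -0.3 to 0.16. Same-number pairs gave 0.37 to 0.45 for replicate 1 and 0.099 to 0.24 for replicates 2 and 3. Replicate 2 against replicate 3 gave 0.07 to 0.16, so the check set replicate 1 apart but hardly separated 2 from 3. The 3 pairs joined in the Fe-deficient step gave 0.41, 0.18 and 0.18.

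Genes were named by rule: bright, singly named probe sets, 10 rises and 10 falls of the Fe-deficient step and of the difference, ranked by p among those meeting the criterion with the same sign in 3 pairs, besides members of Fe lists, the study's tables and up to 6 members of other lists. The heat shock, nitrate, sugar starvation, endodermis, xylem and phloem lists had 0 measured members, and hypoxia and ethylene 1 each, neither meeting the criterion. Members and lists were chosen with earlier results of these data known. The fit was tested on simulated data. Alternatives were no block, quantile normalisation, a pseudocount of 16, bright probe sets only, an intensity trend, all 22 arrays, 1 medium only and leaving out arrays.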

Additional observations from a re-analysis of the deposited data

Results flagged for a closer look

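Among 71 named probe sets that met the criterion in the Fe-deficient step or in the difference of the steps, 13 went up in 3 of 3 replicate pairs in one medium and down in 3 of 3 in the other. The difference of the steps was tested in limma for each, and the adjusted p was 0.9996 for every one of the 13. Because the genes were selected on these contrasts, the values are descriptions. Up without Fe and down with Fe were AT1G50050 (difference 1.5 on the log2 scale), AT4G38950 (1.09), PIRL8 (0.863), AT1G73390 (0.806), AT5G66490 (0.779), AT5G47830 (0.673) and AT2G29070 (0.596). Down without Fe and up with Fe were AT5G22270 (-1), the ferritins FER4 (-0.918) and FER3 (-0.906), AT2G01070 (-0.658), AT4G16140 (-0.629) and AT2G36200 (-0.599).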

How the results depend on the processing

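Without the replicate block the criterion was met by 950 probe sets in Fe-deficient roots, 1224 in Fe-sufficient roots and 503 for the difference, and 0 passed the adjusted p in limma (1248, 1558 and 519 at an unadjusted p under 0.05). With bright probe sets alone the criterion gave 522, 670 and 148, and the adjusted p 47 and 23 in the 2 media. An intensity trend gave 70 and 49, and all 22 arrays 10 and 13. With bright probe sets alone list medians were 0.293 (Fe regulators), 1.14 (Fe distribution) and -0.297 (lowered genes of the study) for the Fe-deficient step, and 0.33 and 0.931 for the first 2 lists in the difference; fewer probe sets entered. Leaving out a replicate or an array gave 965 to 2097, 1259 to 2173 and 729 to 1047 by the criterion, and 0 to 5, 0 to 2 and 0 to 1 by adjusted p. Medians of the Fe-deficient step then ranged from 0.422 to 0.839 (Fe regulators), 0.647 to 1.08 (Fe distribution), -0.71 to -0.429 (Fe storage), -1.93 to -1.09 (touch and wound), 1.07 to 1.8 (strongly raised) and -0.378 to -0.104 (lowered), and those of the difference from 0.189 to 0.574, 0.54 to 1.03, -1.1 to -0.334, 0.806 to 1.76 and -0.968 to -0.339 for the same lists without touch and wound. The causes were not tested. Of 55 named probe sets called in the Fe-deficient step, 26 kept the call under every alternative run and 34 without any single array. For the Fe-sufficient step it was 11 and 15 of 25, and for the difference 5 and 19 of 39. None reversed. The quantile splits of bright probe sets were added after seeing the data. Low intensities limit dim probe sets.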
